A study of Mus musculus with 14 samples.

Results

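Crypts of the adult mouse small intestine were compared with the endoderm of the embryonic intestine at day 12 (E12), to describe what the progenitor epithelium had gained and lost between these ages. The samples were chosen by their labelled source within the value table that holds both tissues, which gave 3 crypt arrays and 1 endoderm array of the 14 arrays in the series. Every probe set annotated to 1 gene symbol was used, 20380 of 22690 probe sets, which gave 12393 genes. A gene was tested where its signal passed the 30th percentile of the table (a log2 signal of 5.78) in the endoderm array or in at least 2 crypt arrays. This left 10080 genes, and 2313 were not tested. A gene below that level in 1 of the tissues entered through the other, where it is higher, so the filter favoured its direction.

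The series profiled crypts, villi and the dissected layers of the E12 gut on oligonucleotide arrays. Each crypt sample came from a C57BL/6 mouse aged 12 weeks, and the samples carry the numbers 12, 21 and 41. The endoderm sample was RNA pooled from 35 fetuses whose intestine had been digested with collagenase and separated into layers. The 3 villus arrays and the E12 mesenchyme array of the same table entered the fit, and their values are given beside those of crypts and endoderm. The villus samples also came from mice aged 12 weeks, and the crypt numbers 12 and 41 recur among them. The labels do not say whether samples with the same number share a mouse, and the fit treated them as separate samples. The strain of the fetuses and the method of crypt isolation are not given in the labels, so age and preparation cannot be told apart. The labels name no gene alteration or treatment in any group. Because endoderm has 1 array, the spread behind each test came from the crypt and villus replicates, and the endoderm array was assumed to vary as they do. An exact permutation test of 3 arrays against 1 cannot give a p below 0.25, so all p-values here are those of the limma fit across genes, and they measure only the spread between these samples.

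Crypts are pockets at the base of the adult epithelium. They hold the Lgr5 stem cells, the dividing progenitors above them and, at the bottom, Paneth cells, which release antimicrobial proteins. At E12 the mouse gut tube is lined by a dividing, pseudostratified endoderm that has not yet formed villi or crypts, and Paneth cells appear only after birth. Wnt and Notch signals sustain the adult crypt, while the fetal endoderm sends Hedgehog signals to the mesenchyme around it.

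The arrays of the table had median log2 signals of 6.67 to 6.80. Crypt arrays correlated with each other at 0.97 to 0.983 over all genes, and with the endoderm array at 0.856 to 0.868. Both preparations held epithelium. Epcam, which encodes an epithelial adhesion protein, read 11.80, 11.94 and 12.25 in crypts 12, 21 and 41 and 12.17 in endoderm, against 7.36 in E12 mesenchyme. The keratin gene Krt8 read 12.27, 12.56 and 13.03 in crypts and 11.81 in endoderm, and Cdh1, which encodes E-cadherin, read 9.45, 9.70 and 10.02 in crypts and 9.05 in endoderm, and neither difference was called. Krt19, another keratin gene, was higher in crypts by 1.57 ± 0.52 (log2 difference ± SE) and missed the threshold with a limma adjusted p of 0.0605. Vil1, which encodes the microvillus protein villin, was called higher by 1.53 ± 0.37, a call lost without crypt 21 (limma adjusted p 0.0638).

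Of the 10080 genes tested, 2602 (25.8%) were called at a limma adjusted p under 0.05. Crypts were higher for 881 genes (8.74%) and lower for 1721 (17.1%). The counts of each gene list below are to be read beside these shares. Losses were more numerous, 1721 against 881, and under quantile normalization 1367 against 1059. The largest differences were gains: 105 genes were at least 8-fold higher in crypts and 62 at least 8-fold lower. The median difference over all tested genes was 0.03. Of the called gains, 182 lay near background in endoderm, that is under the 30th percentile, and 199 of the called losses lay near background in crypts. A fold change of such a gene is not exact. In these bulk samples, fewer cells of a type and less RNA per cell cannot be told apart.

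**Figure D1:**
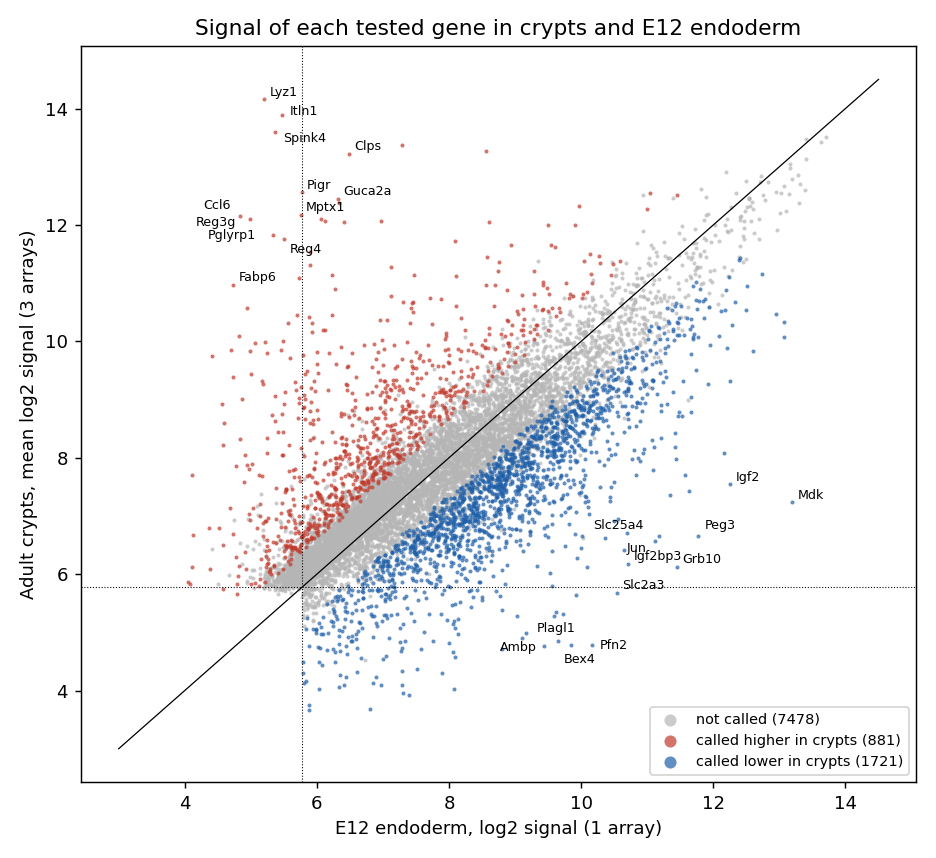
Each point is a tested gene, with its log2 signal on the E12 endoderm array (horizontal) and its mean log2 signal over the 3 crypt arrays (vertical). Red points were called higher in crypts (881), blue points lower (1721) and grey points were not called (7478). Dotted lines mark the 30th percentile of the table, the solid line marks equal signal, and the 12 largest rises and falls are named. Of the 12 named rises, 10 lie left of the dotted line, near background in endoderm, and the highest reaches 14.16 in crypts.

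The 12 largest gains were Lyz1, Itln1, Spink4, Ccl6, Reg3g, Pigr, Clps, Pglyrp1, Mptx1, Reg4, Fabp6 and Guca2a. They ran from 69.9-fold (Guca2a) to 494.4-fold (Lyz1), with limma adjusted p values of 1.2e-05 to 0.0142, and 10 of them lay near background in endoderm. Most encode secreted proteins of defence or digestion. The 12 largest losses were Mdk, Pfn2, Grb10, Peg3, Bex4, Slc2a3, Plagl1, Igf2, Ambp, Jun, Igf2bp3 and Slc25a4. They ran from 22.8-fold (Slc25a4) to 62.3-fold (Mdk), with limma adjusted p values of 1.58e-05 to 0.00177, and 5 of them lay near background in crypts. Among them are growth factor, imprinted and RNA-binding genes of the fetus. Pfn2, an actin-binding profilin gene, read 4.97, 4.56 and 4.81 in crypts against 10.17 in endoderm. Slc25a4, which encodes a mitochondrial carrier of ATP and ADP, read 6.67, 6.60 and 6.70 against 11.17. No called gene of the comparison had its endoderm value inside the range of the crypt values.

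**Figure D2:**
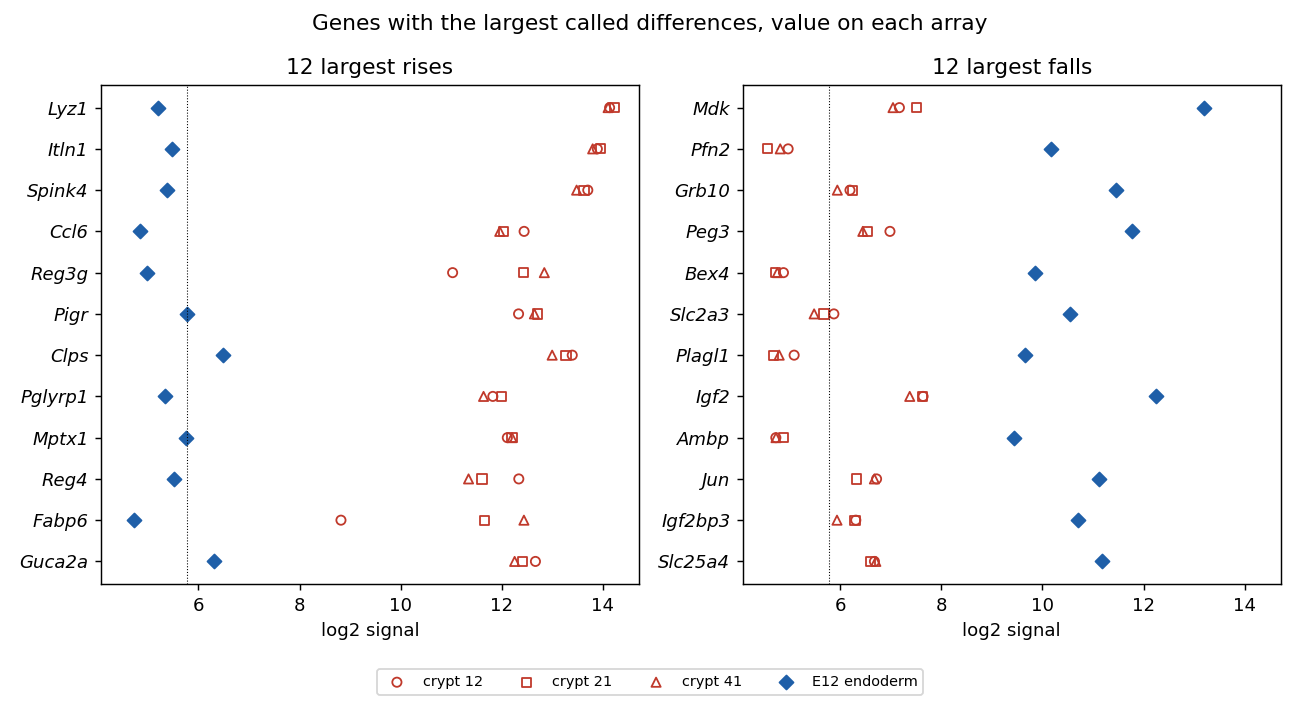
Log2 signal (horizontal) of the 12 largest rises (left) and the 12 largest falls (right) on each crypt array (open red symbols) and on the E12 endoderm array (blue diamonds). The dotted line marks the 30th percentile. The crypt arrays lie close together for most genes, and for Fabp6 they spread from 8.82 to 12.44.

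Paneth cell genes made up the strongest gain. Lyz1, which encodes the lysozyme that Paneth cells secrete, read 14.14, 14.23 and 14.11 in crypts 12, 21 and 41 and 5.21 in endoderm. It had the highest signal of all tested genes on each crypt array. Lyz1 differed by 8.95 ± 0.87, while its probe set of a type not prone to cross-hybridization gave 2.00, still called (limma adjusted p 0.0185). Itln1, which encodes the lectin intelectin, read 13.89, 13.95 and 13.80 against 5.48. Mptx1, a pentraxin gene, read 12.11, 12.20 and 12.20 against 5.76. The groups stood far apart for each of these genes, and the crypt arrays differed little among themselves. All 6 tested Paneth cell effectors were called higher, the others being Mmp7, Pla2g2a and Habp2, named after their values were seen (6.07, 5.64 and 1.62), with a median difference of 6.25 beside 0.03 over all genes, and 4 of the 7 on the array lay near background in endoderm. In villi the same genes were lower and uneven: Lyz1 read 10.10 to 13.01 and Mptx1 6.61 to 8.40.

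The Reg genes, which encode secreted C-type lectins, rose in part. Of 7 tested, 3 were called higher and 0 lower. Reg3g, which encodes a lectin that kills Gram-positive bacteria, read 11.03, 12.44 and 12.84 in crypts and 4.99 in endoderm, and Reg4 read 12.34, 11.61 and 11.34 against 5.51. Reg3b spread widely, at 8.56, 11.35 and 12.78 against 6.27, and its call was lost without crypt 21 or the villus array V275, with limma adjusted p values up to 0.0959. Crypt 12 was the lowest array for Reg3g and Reg3b and the highest for Reg4.

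The promoters of Mptx1 (chr1:174330268-174330567, plus strand) and Reg3g (chr6:78468825-78469124, minus strand) are printed as examples of the largest gains. They come from RefSeq on GRCm38.p6 and run 5′ to 3′ from 250 bases before the annotated start to 50 after it. Capitals mark the letters of the TATA box, TATAAA, on either strand.
Mptx1: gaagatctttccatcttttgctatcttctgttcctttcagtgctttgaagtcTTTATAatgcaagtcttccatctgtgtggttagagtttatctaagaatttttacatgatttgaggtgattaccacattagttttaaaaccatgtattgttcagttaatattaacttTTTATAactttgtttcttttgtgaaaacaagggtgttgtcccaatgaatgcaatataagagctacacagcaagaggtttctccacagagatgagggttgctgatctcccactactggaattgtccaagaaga
Reg3g: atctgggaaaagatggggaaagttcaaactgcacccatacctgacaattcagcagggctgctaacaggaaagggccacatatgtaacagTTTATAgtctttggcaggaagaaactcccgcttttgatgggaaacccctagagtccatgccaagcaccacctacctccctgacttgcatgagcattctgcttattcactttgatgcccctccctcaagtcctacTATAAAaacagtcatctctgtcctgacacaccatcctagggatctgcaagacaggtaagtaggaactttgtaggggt
In Reg3g the letters TATAAA begin 27 bases before the start. In Mptx1 both matches are on the opposite strand, and the nearer begins 82 bases before the start. The letters were present in 11.1% of 684 promoters of genes called higher, in 6.72% of 1413 promoters of genes called lower, in 8.74% of 8103 promoters of tested genes and in 14.2% of all 27025 promoters in the RefSeq table.

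Goblet cells, which secrete mucus, were the other secretory lineage with a broad gain. Of 20 goblet cell genes tested, 18 were called higher and 1 lower, with a median difference of 2.66. Spink4, a protease inhibitor gene of goblet cells, read 13.70, 13.63 and 13.48 in crypts and 5.37 in endoderm. Zg16, which encodes a lectin of the mucus, read 11.86, 11.91 and 12.42 against 6.97. Clca1, which encodes a secreted mucus-processing protein, read 9.90, 9.41 and 10.24 against 4.70, and 12.22 to 12.26 in villi. The crypt arrays of these genes did not approach the endoderm value. The gains included transcription factor genes of secretory cells: Atoh1, Spdef and Foxa3, named after their values were seen, rose by 3.31, 2.28 and 1.86. The member called lower was Muc1, a membrane mucin gene named after its values were seen, by -0.69.

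Enteroendocrine cells, the hormone-making cells of the gut, also gained. Of 21 genes tested, 10 were called higher and 1 lower, with a median of 1.01. Chgb, which encodes a protein of hormone granules, read 10.69, 9.70 and 9.90 in crypts and 4.82 in endoderm. Gcg, which encodes proglucagon, the source of GLP-1, read 9.72, 9.50 and 10.30 against 4.99, and its villus arrays read 6.03 to 8.18. Chga, another granule protein gene, read 9.57, 9.20 and 9.16 against 5.96. For these 3 genes every crypt array lay above endoderm, where Chgb and Gcg were near background and Chga was just above it. The member called lower was Cpe, a prohormone-processing enzyme gene named after its values were seen, by -1.30. The peptide gene Guca2a, which encodes guanylin, a regulator of salt and water secretion, read 12.67, 12.41 and 12.26 in crypts and 6.32 in endoderm.

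Genes of protein secretion were also higher in crypts, and a link to these lineages was not tested. Of 31 genes of the secretory pathway and the unfolded protein response, 19 were called higher and 0 lower, with a median of 0.98. The mean over the list was 9.59 to 9.76 in crypts, 8.38 in endoderm and 8.80 to 8.92 in villi. Ern2, a stress sensor of the endoplasmic reticulum found in mucus cells, read 9.72, 9.76 and 8.86 in crypts and 5.01 in endoderm. Sec11c, which encodes a subunit of the signal peptidase, read 10.04, 10.09 and 10.33 against 5.93. Kdelr3, which encodes a receptor that returns proteins to the endoplasmic reticulum, read 8.41, 8.86 and 8.71 against 5.82. Of 24 heat shock and chaperone genes, 1 (4.17%) was called higher and 3 (12.5%) lower, both shares below those of all tested genes (8.74% and 17.1%). Called lower were 1 without crypt 21 and 7 without crypt 41. The rise was Dnajb9, a chaperone gene of the endoplasmic reticulum (2.20 ± 0.33), and the 3 falls included the cytosolic chaperone genes Cct5 (-1.66 ± 0.29) and Hspa1a (-2.92 ± 0.80). The call of Hspa1a was lost without crypt 12 or crypt 21, with limma adjusted p values up to 0.091.

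**Figure D3:**
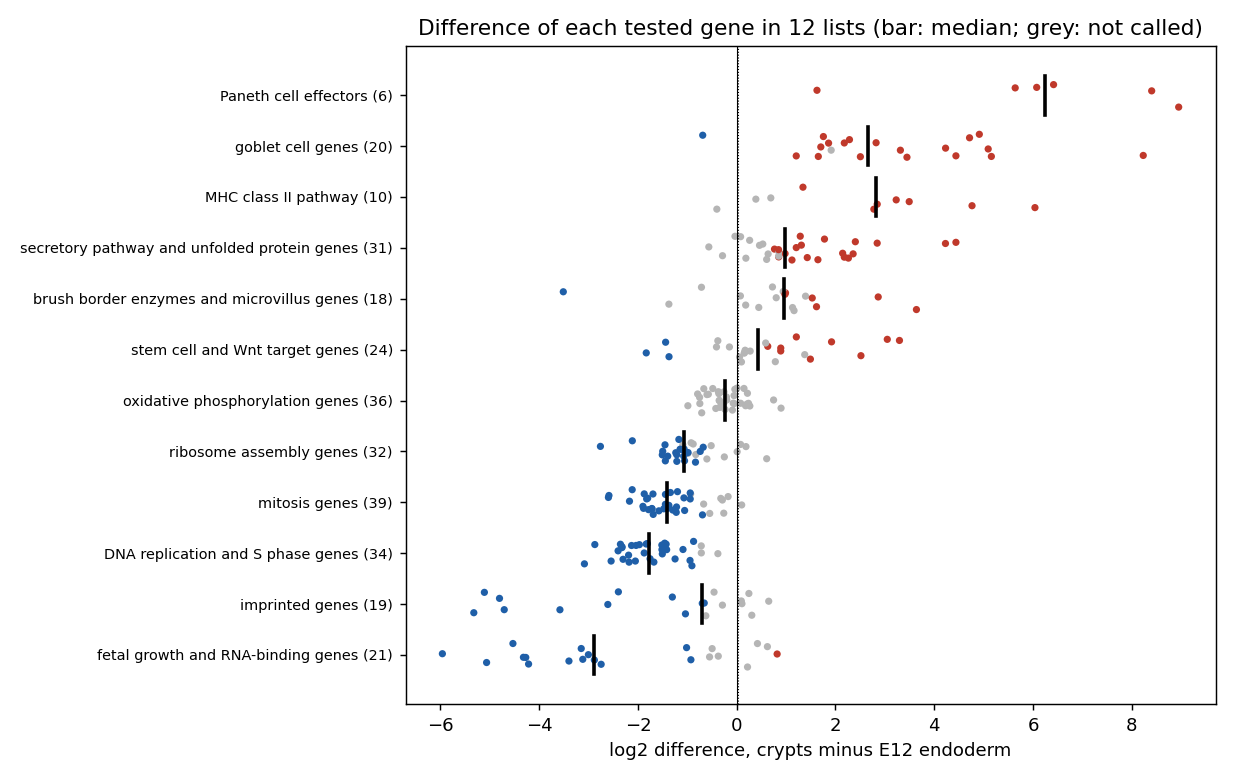
Log2 difference, crypts minus E12 endoderm (horizontal), of each tested gene in 12 gene lists, with the number of tested genes in brackets. Red and blue points were called higher and lower in crypts, grey points were not called, and the black bar is the median of the list. Paneth cell effectors have a median of 6.25 and fetal growth genes one of -2.88, while oxidative phosphorylation genes cluster around -0.25 with no call.

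Some genes of defence and most tested genes of antigen presentation were higher in crypts. Ccl6, a chemokine gene, read 12.44, 12.04 and 11.96 in crypts and 4.83 in endoderm. Pigr, which encodes the receptor that carries IgA across the epithelium, read 12.33, 12.71 and 12.65 against 5.77, and Pglyrp1, which encodes a protein that binds bacterial peptidoglycan, read 11.82, 12.00 and 11.64 against 5.34. Of 28 innate defence and interferon genes, 10 were called higher, 1 lower and 17 not at all. The member called lower was Ifit2, an interferon-induced gene named after its values were seen, by -2.43.

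Of 10 tested genes of the MHC class II pathway, which presents peptides to helper T cells, 7 were called higher and 0 lower, with a median of 2.81. Cd74, the invariant chain, read 11.64, 12.13 and 12.54 in crypts and 6.06 in endoderm. H2-Aa, a class II chain, read 9.11, 10.95 and 11.31 against 5.69, and Ctss, a protease that trims the invariant chain, read 7.16, 8.71 and 9.09 against 4.83. Every crypt value lay above endoderm, and crypt 12 was the lowest for each of these genes. Of 13 class I and immunoproteasome genes, 9 were called higher and 0 lower, with a median of 2.12. Psmb8, an immunoproteasome subunit gene, read 7.91, 8.99 and 9.88 against 5.51, and Psmb9, another, read 7.81, 9.10 and 9.70 against 5.81. The peptide transporter gene Tap1 read 7.60, 9.10 and 9.23 against 5.94, and its call was lost without crypt 21 (limma adjusted p 0.0536). Crypt 12 was the lowest crypt array for 9 of 10 class II and 12 of 13 class I genes, against 31.3% of all tested genes. Leaving out all probe sets with a type suffix (_a, _s, _x and similar), whether or not they match other genes, left 3 class II and 5 class I genes called.

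By the median of their lists, markers of immune cells moved less than genes of antigen presentation. The T cell, B cell and myeloid lists had medians of 0.39, 0.60 and 0.55, beside 0.03 over all tested genes. The difference was positive for 12 of 13, 8 of 8 and 15 of 15 tested members, beside 5169 of all 10080 tested genes. None of 13 tested T cell and intraepithelial lymphocyte genes was called in the limma fit, while 3 had an unadjusted p under 0.05, and Gzma, the granzyme gene with the largest difference, read 7.01, 6.67 and 6.92 in crypts, 5.73 in endoderm and 10.55 to 11.89 in villi. The mean signal of the 19 T cell genes on the array was 6.27 to 6.49 in crypts, 5.92 in endoderm and 7.52 to 8.24 in villi. Ptprc, the pan-leukocyte gene that encodes CD45, read 5.98, 6.36 and 7.34 in crypts against 5.07 (limma adjusted p 0.0519). Of 8 B and plasma cell genes, 4 were called higher: Jchain, the joining chain of secreted IgA (6.27, 8.36 and 9.02 against 4.95), Cd79a, Ms4a1 and, named after its values were seen, Derl3. Without crypt 21 none of the 4 was called, and the mean of the 10 B cell genes on the array was 6.59, 6.94 and 7.15 in crypts 12, 21 and 41 and 6.02 in endoderm. Of 15 myeloid genes, 3 (20.0%) were called higher, Lyz2 (5.95), Laptm5 (1.15) and Csf1r (0.94). Only Lyz2 was still called when a gene was read as the median of its probe sets. Lyz2 is a close copy of Lyz1, so its signal of 12.14, 12.12 and 11.96 in crypts is uncertain. The part of immune cells in the gains of antigen presentation genes was not tested.

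**Figure D4:**
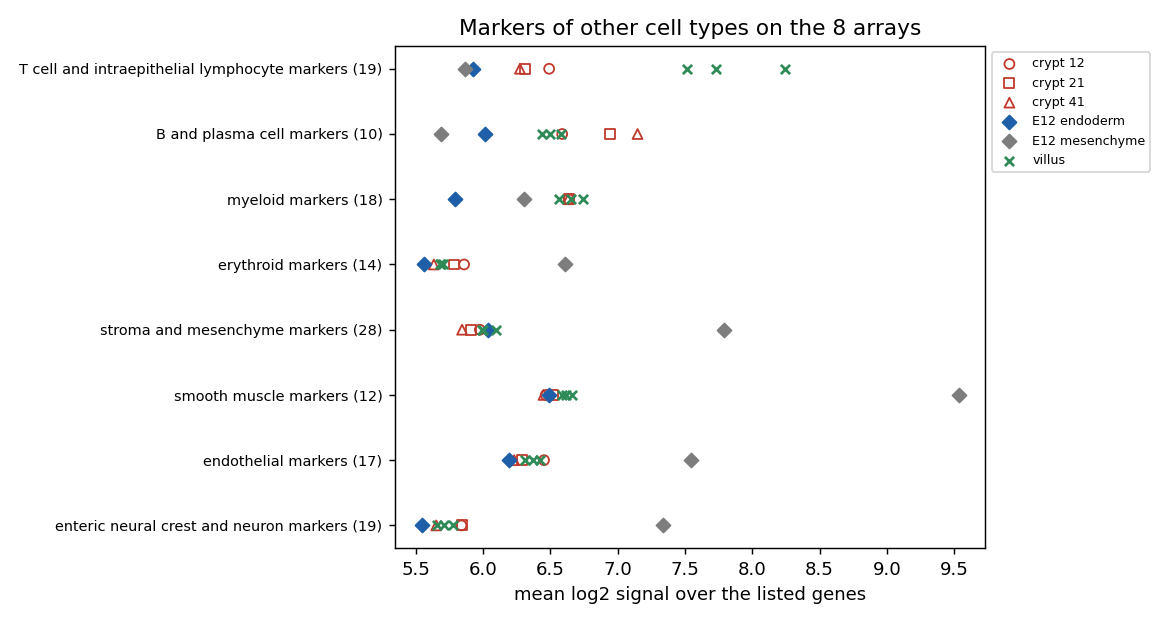
Mean log2 signal (horizontal) over the marker genes of 8 other cell types on each array, with the number of genes on the array in brackets. Crypt arrays are open red symbols, E12 endoderm and mesenchyme blue and grey diamonds, and villi green crosses. Stroma, muscle, endothelial and neural markers of crypts and endoderm lie together and below mesenchyme, which reads 9.53 for smooth muscle genes against 6.49 in endoderm.

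Genes of absorption were gained in part. Of 18 brush border and microvillus genes, 6 were called higher and 1 lower, with a median of 0.96. Mep1b, which encodes a subunit of the digestive protease meprin, read 8.40, 9.45 and 10.64 in crypts, 5.86 in endoderm and 12.72 to 13.22 in villi. Cdhr5, which encodes a cadherin that links microvilli, read 11.31, 11.40 and 11.61 against 8.58. Crypt 12 was the lowest crypt array for 13 of the 18 genes and crypt 41 the highest for 13, so the crypt samples themselves differed in absorptive genes. Cubn, which encodes the vitamin B12 receptor cubilin, went the other way: it read 5.79, 6.52 and 5.76 in crypts, 9.54 in endoderm and 11.24 to 11.96 in villi. Crypts were therefore the lowest of the epithelial samples for Cubn. Fabp1, which encodes a carrier of fatty acids in liver and gut, had the same order, at 5.98, 5.85 and 5.77 in crypts, 8.45 in endoderm and 10.29 to 12.61 in villi, but its call was lost when any crypt array was left out (limma adjusted p up to 0.0858). Lct, the gene of lactase, which cleaves milk sugar, was near background in crypts (5.03 to 5.55) and endoderm (4.77) and was not tested.

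Of 28 nutrient and ion transporters, 8 (28.6%) were called higher and 1 (3.57%) lower, beside 8.74% and 17.1% of all tested genes. Without crypt 41 there were 5 higher. Of 24 genes of fat absorption and bile acid handling, 5 (20.8%) were higher and 1 (4.17%) lower. Aqp1, which encodes a water channel that is also abundant in vessels, read 10.73, 10.91 and 10.07 in crypts, 4.94 in endoderm and 6.10 in mesenchyme. Slc1a1, a glutamate transporter gene, read 8.50, 8.95 and 9.65 against 5.72. Car4, a membrane carbonic anhydrase gene, read 7.95, 8.91 and 9.95 against 5.73, and its call was lost without crypt 21 or crypt 41 (limma adjusted p up to 0.075). Fabp6, which encodes the ileal bile acid binding protein, read 8.82, 11.66 and 12.44 against 4.73, and villi read 10.57 to 12.84. It had the widest crypt spread among the 12 largest gains (SD 1.91, n = 3). Apoc2, an apolipoprotein gene, read 10.17, 10.42 and 10.00 against 6.09, and Abcg5, a sterol exporter gene, read 8.55, 9.08 and 9.42 against 5.82. The transporter called lower was Slc40a1, the iron exporter gene ferroportin, named after its values were seen (-3.12).

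Of 38 genes of drug and toxin metabolism, 11 were called higher and 1 lower, and without crypt 21 there were 6 higher. Ces2e, a carboxylesterase gene, read 6.68, 7.94 and 8.51 in crypts and 4.11 in endoderm. Abcb1a, which encodes the drug efflux pump P-glycoprotein, read 8.43, 8.41 and 8.47 against 5.49. The cytochrome P450 gene Cyp4f14 rose by 2.23 ± 0.54, and its call was lost without crypt 21 (limma adjusted p 0.062). Villi read higher than crypts for each of these, at 10.21 to 11.13 for Ces2e, 9.99 to 10.81 for Abcb1a and 12.14 to 12.64 for Cyp4f14. The member called lower was Gsta4, a glutathione transferase gene named after its values were seen (-2.08).

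Genes that mark the exocrine pancreas included some of the largest gains. Clps, the gene of colipase, which lets lipase work on fat droplets, read 13.40, 13.27 and 13.00 in crypts, 6.48 in endoderm and 7.51 to 9.09 in villi. Pnliprp2, a lipase-related gene, read 12.66, 12.55 and 11.94 against 6.33. Of 16 such genes tested, 5 were called higher and 1 lower. Those called higher include Zg16, which was also counted among the goblet cell genes above. The digestive enzyme genes Cpa1 and Ctrb1, named after their values were seen, differed by 0.23 and 0.17 and were not called.

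Leading regulators of intestinal identity had high signals at both ages. Hnf4a, a nuclear receptor gene of the gut and liver, read 10.999, 11.08 and 11.28 in crypts and 10.51 in endoderm (limma adjusted p 0.0901). Cdx2, the homeobox gene that specifies intestine, read 10.31, 10.40 and 9.77 against 11.06 (limma adjusted p 0.179). Neither difference was called, and both genes were bright in both tissues. Of 29 regulators, 7 were called higher and 3 lower. Cdx1, the paralog of Cdx2, read 9.45, 9.54 and 9.85 in crypts and 6.01 in endoderm. Vdr, which encodes the vitamin D receptor, read 9.45, 9.35 and 9.15 against 5.17. The ETS factor gene Ehf, named after its values were seen, was higher by 3.09. Prdm1, which encodes Blimp1, a repressor that holds the fetal epithelium in its immature state, fell from 9.93 in endoderm to 5.96, 5.10 and 5.89 in crypts. Its villus arrays read 7.40 to 9.84.

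Of 21 regulators of endoderm patterning, 2 (9.52%) were called higher and 6 (28.6%) lower, beside 8.74% and 17.1% of all tested genes. The higher ones were Foxa3 and Sox17, named after their values were seen. Without suffixed probe sets, 2 of 16 were called lower. Foxa1, which encodes a pioneer factor of endoderm, read 8.78, 8.99 and 8.99 in crypts, 11.29 in endoderm and 6.00 in mesenchyme. Meis1, which encodes a Hox cofactor, read 4.40, 4.26 and 4.33 against 7.29, with 9.81 in mesenchyme. Id2, which encodes an inhibitor of differentiation factors, fell by -2.95 ± 0.28, and its other suffixed probe set gave -4.18. Its only unsuffixed probe set was dimmer (5.92 in endoderm) and gave -0.19. Of 19 Hox genes and cofactors, 1 (5.26%) was called higher and 4 (21.1%) lower, beside 8.74% and 17.1% of all tested genes. The lower ones were all cofactors: Meis1, Pbx2 (-1.38), Pknox1 (-0.97) and, named after its values were seen, Meis2 (-0.85). The call of Pbx2 was lost when its probe sets were read as their median (limma adjusted p 0.493) and that of Pknox1 without crypt 21 (0.0506).

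The best known stem cell genes of the crypt were not called. Lgr5, which encodes an R-spondin receptor and marks the stem cells, read 9.40, 8.86 and 8.17 in crypts and 8.54 in endoderm, so the endoderm value lay within the crypt range. Ascl2, a transcription factor gene of these cells, read 7.34, 7.32 and 7.37 against 7.29 and 7.31 to 7.35 in villi, and Sox9, a progenitor factor gene, 8.01, 8.24 and 7.60 against 7.85. The 2 dimmer probe sets of Ascl2 differed by -0.33 and 0.41, so its direction is uncertain. None of the 3 genes was called, with limma adjusted p values of 0.659, 0.819 and 0.854, and the sign of Lgr5 and Sox9 turned when a crypt array was left out. Of 24 stem cell and Wnt target genes, 9 (37.5%) were called higher and 3 (12.5%) lower, beside 8.74% and 17.1% of all tested genes, with a median of 0.43, and without crypt 21 there were 4 higher. Smoc2, a matricellular gene of the stem cells, read 8.90, 9.27 and 8.73 against 5.92, with 9.69 in mesenchyme. Cd44, which encodes a hyaluronan receptor, read 8.17, 7.18 and 7.70 against 5.17, and the signaling regulator gene Ppp1r1b 8.66, 9.28 and 9.68 against 5.91. Ccnd1, which encodes the G1 regulator cyclin D1, rose by 1.49 ± 0.35, a call lost without crypt 21 (limma adjusted p 0.0546). The members called lower were Bmi1, Igfbp4 and Cdca7, named after their values were seen, by -1.83, -1.44 and -1.37.

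Among Wnt ligands, receptors and antagonists, 0 of 20 were called higher and 4 (20.0%) lower, beside 8.74% and 17.1% of all tested genes. The share called lower was near that of all tested genes. Fzd2, a Wnt receptor gene, read 7.20, 6.72 and 6.84 in crypts, 9.11 in endoderm and 10.27 in mesenchyme. Sfrp5, which encodes a secreted Wnt antagonist, read 8.32, 7.77 and 8.03 against 9.74, with 7.31 in mesenchyme. Fzd8, another receptor gene, read 5.82, 5.87 and 5.48 against 6.97. The fourth was the coreceptor gene Lrp6, named after its values were seen (-0.93).

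Hedgehog ligands were higher in the fetal layer. Shh read 5.03, 5.20 and 5.21 in crypts, near background, 8.05 in endoderm and 4.92 in mesenchyme. Ihh read 7.50, 7.33 and 7.66 in crypts, 9.82 in endoderm, 6.38 in mesenchyme and 8.68 to 9.45 in villi. For both ligands endoderm was the highest of all groups in the table. Of 12 pathway genes, 0 were called higher and 4 (33.3%) lower, beside 8.74% and 17.1% of all tested genes. The others called lower were Smo, the signal transducer, named after its values were seen (-1.11), and Sufu, an inhibitor (-1.18). The call of Sufu was lost with the median of its probe sets (limma adjusted p 0.0821).

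In the Notch pathway, 7 (30.4%) of 23 genes were called higher and 4 (17.4%) lower, beside 8.74% and 17.1% of all tested genes. The share called lower was thus near that of all tested genes. Nrarp, a target and feedback inhibitor of Notch, read 8.82, 9.18 and 8.97 in crypts against 7.03. The ligand genes Dll1 and Dll4, named after their values were seen, rose by 1.36 and 1.06, while the target gene Hes1, named in the same way, fell by -0.90. Rbpj, which encodes the DNA-binding partner of Notch, read 7.48, 7.53 and 7.78 against 9.09. The receptor gene Notch2 read 5.51, 5.76 and 5.53 against 8.50, while another of its probe sets differed by 0.61 the other way, so its fall is uncertain. Called members of the pathway moved in both directions, targets included.

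Of 25 FGF and EGF family genes, 5 (20.0%) were called higher and 7 (28.0%) lower, beside 8.74% and 17.1% of all tested genes. Without crypt 21 only 1 was called higher. Errfi1, a feedback inhibitor of the EGF receptor, read 6.13, 6.43 and 6.69 in crypts, 10.64 in endoderm and 8.95 to 9.70 in villi. Pdgfc, a growth factor gene, read 6.51, 6.46 and 6.39 against 10.00, and Spry1, a feedback inhibitor of FGF signaling, 7.12, 6.80 and 6.78 against 9.20. Higher in crypts were the receptor genes Egfr and Erbb2, named after their values were seen, by 1.00 and 0.85. Of 26 BMP and TGF-beta genes, 3 (11.5%) were higher and 4 (15.4%) lower, shares near those of all tested genes, and without crypt 12 or crypt 21 only 1 was higher. Among the called members were Bambi, a decoy receptor gene (10.37, 9.88 and 9.34 against 8.14), and Tgfbr1, a TGF-beta receptor gene (6.68, 6.85 and 6.79 against 8.83). Of 12 Eph receptors and ephrins, 2 were higher and 2 (16.7%) lower, the latter near the share of all tested genes. The receptor gene Ephb3 rose by 1.21 ± 0.23, and the ligand genes Efnb2 and Efna4 fell by -1.52 ± 0.29 and -0.79 ± 0.21. The call of Efnb2 was lost under quantile normalization (limma adjusted p 0.343) and that of Efna4 without crypt 21 (0.0825).

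Fetal growth and imprinted genes were among the largest single losses, and the fetal growth list had the lowest median of all lists. Of 21 fetal growth and RNA-binding genes, 14 were called lower and 1 higher, with a median of -2.88. Of the 25 on the array, 13 lay near background on every crypt array. Mdk, which encodes the growth factor midkine, read 7.17, 7.50 and 7.04 in crypts, 13.20 in endoderm and 12.47 in mesenchyme. Igf2bp3, which encodes an RNA-binding protein of fetal tissues, read 6.31, 6.29 and 5.93 against 10.71, and its relative Igf2bp1 5.78, 5.77 and 5.59 against 8.72. Hmga2, which encodes a chromatin protein of growing tissue, read 7.70, 7.45 and 7.12 against 11.64. Bex4 read 4.87, 4.71 and 4.75 against 9.85, with 6.66 in mesenchyme. The crypt values of these genes kept within a narrow range far below endoderm. With the filter that asks for signal in at least 3 of the 8 arrays, 6 of the list were called lower, because that filter leaves out genes seen only in E12 arrays. The member called higher was Igfbp5, an IGF-binding protein gene named after its values were seen (0.82), and another of its probe sets differed the other way.

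Imprinted genes are expressed from the copy of 1 parent, and many regulate fetal growth. Of 19 tested, 11 were called lower and 0 higher, with a median of -0.70. Without suffixed probe sets, 6 of 14 were called lower. Igf2, the fetal growth factor gene, read 7.64, 7.62 and 7.37 in crypts, 12.25 in endoderm, 12.56 in mesenchyme and 8.45 to 8.87 in villi. Peg3, a zinc finger gene, read 6.98, 6.54 and 6.44 against 11.77, and Grb10, which encodes an inhibitor of insulin and IGF receptors, 6.19, 6.24 and 5.94 against 11.45. Plagl1, which encodes a zinc finger factor that regulates other imprinted genes, read 5.09, 4.67 and 4.79 against 9.65, with 12.22 in mesenchyme. Cdkn1c, which encodes the cell cycle inhibitor p57, read 7.02, 6.95 and 6.77 against 10.50. These losses were as large as 40.1-fold for Grb10, although as the median of their probe sets Grb10 and Plagl1 differed by -1.10 and -2.59. Genes that fell include both growth promoters (Igf2) and growth inhibitors (Grb10, Cdkn1c).

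Most DNA replication and mitosis genes were lower in crypts than in endoderm. Of 34 replication and S phase genes, 31 were called lower and 0 higher, with a median of -1.78. Rrm2, which encodes a subunit of the enzyme that makes deoxynucleotides, read 6.21, 7.28 and 7.63 in crypts and 10.13 in endoderm. Mcm6, which encodes a subunit of the replicative helicase, read 7.91, 8.49 and 8.61 against 11.21, and Orc6, of the origin recognition complex, 6.69, 6.78 and 6.56 against 9.22. Of 39 mitosis genes, 31 were called lower and 0 higher, with a median of -1.41, and without crypt 21 there were 22. Kif20a, a kinesin gene of cell cleavage, read 5.45, 5.50 and 5.52 against 8.09, Bub1, a checkpoint kinase gene, 5.97, 5.30 and 5.86 against 8.30, and Ect2, which directs the cleavage furrow, 6.05, 6.07 and 6.44 against 8.36. Mki67, the common marker of dividing cells, stood apart from them: it read 10.14, 9.98 and 10.21 in crypts, 10.40 in endoderm and 5.99 to 7.40 in villi, and was not called (limma adjusted p 0.674). Mean signal over the mitosis list was 7.36 to 7.55 in crypts, 8.77 in endoderm and 6.07 to 6.41 in villi, so crypts lay between the fetal layer and the villi.

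Promoters of 3 mitosis genes that fell and of Mki67 are printed because mitosis genes are known to share a pair of promoter elements, the cell cycle homology region (letters TTTGAA) and the CCAAT box bound by NF-Y (letters CCAAT), on either strand. Cdc20 and Cdk1 were chosen after their values were seen (-1.87 and -1.70). All 4 are from RefSeq on GRCm38.p6, on the minus strand: Ect2 at chr3:27153829-27154128, Cdc20 at chr4:118437294-118437593, Cdk1 at chr10:69352863-69353162 and Mki67 at chr7:135716330-135716629. Capitals mark the letters of either element.
Ect2: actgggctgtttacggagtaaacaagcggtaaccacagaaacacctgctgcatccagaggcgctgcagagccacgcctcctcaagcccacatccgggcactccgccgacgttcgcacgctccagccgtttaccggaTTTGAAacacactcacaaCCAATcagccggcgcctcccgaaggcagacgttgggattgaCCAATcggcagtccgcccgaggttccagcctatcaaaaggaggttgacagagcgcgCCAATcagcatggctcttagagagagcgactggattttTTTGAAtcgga
Cdc20: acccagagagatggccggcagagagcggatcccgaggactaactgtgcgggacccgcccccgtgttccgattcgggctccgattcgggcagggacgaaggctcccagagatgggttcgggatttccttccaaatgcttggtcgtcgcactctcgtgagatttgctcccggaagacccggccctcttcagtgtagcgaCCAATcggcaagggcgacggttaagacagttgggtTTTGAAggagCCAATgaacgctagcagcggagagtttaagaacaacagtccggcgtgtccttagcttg
Cdk1: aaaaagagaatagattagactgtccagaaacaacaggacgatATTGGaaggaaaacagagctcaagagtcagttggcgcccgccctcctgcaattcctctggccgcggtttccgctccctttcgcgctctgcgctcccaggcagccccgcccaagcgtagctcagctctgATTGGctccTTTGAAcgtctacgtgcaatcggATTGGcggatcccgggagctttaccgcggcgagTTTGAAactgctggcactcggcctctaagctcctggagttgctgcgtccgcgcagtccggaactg
Mki67: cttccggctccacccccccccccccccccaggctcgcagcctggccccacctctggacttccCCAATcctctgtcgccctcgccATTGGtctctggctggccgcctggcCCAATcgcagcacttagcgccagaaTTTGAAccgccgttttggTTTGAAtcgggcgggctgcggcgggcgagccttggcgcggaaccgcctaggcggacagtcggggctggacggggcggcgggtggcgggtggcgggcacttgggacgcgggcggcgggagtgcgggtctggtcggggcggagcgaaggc
The letters TTTGAA were found in 75% of 32 promoters of tested mitosis genes, against 12.2% of 8103 promoters of tested genes and 18.1% of all 27025 promoters of the same length. CCAAT was in 75% of the mitosis promoters, 38.1% of tested genes and 37.9% of all promoters. Mki67, which was not called, has the same letters as the genes that fell. Among all genes called lower the shares were 13.8% and 40.8%, and among those called higher 12.9% and 35.2%, near the shares among tested genes. No test was made of these shares. A match is a description of the letters and not evidence of a bound site.

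The E2F element, with letters TTTCCCGC, is the corresponding element of S phase genes. It was found in 17.2% of 29 promoters of replication and S phase genes, against 2.00% of tested genes and 1.11% of all promoters, and in 2.97% of genes called lower and 0.877% of those called higher. The promoters of the helicase subunit genes Mcm3 (chr1:20820263-20820562) and Mcm7 (chr5:138171834-138172133), both on the minus strand, hold it on the opposite strand (GCGGGAAA) and are printed as examples, with E2F letters and CCAAT in capitals. Mcm3 and Mcm7 were chosen after their values were seen and fell by -2.36 and -1.87.
Mcm3: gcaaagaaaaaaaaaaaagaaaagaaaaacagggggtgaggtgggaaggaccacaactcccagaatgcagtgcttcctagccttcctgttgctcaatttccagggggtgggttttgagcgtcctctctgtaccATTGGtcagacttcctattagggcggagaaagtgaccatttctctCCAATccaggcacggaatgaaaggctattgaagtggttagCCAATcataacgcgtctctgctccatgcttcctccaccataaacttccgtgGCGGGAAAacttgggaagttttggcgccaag
Mcm7: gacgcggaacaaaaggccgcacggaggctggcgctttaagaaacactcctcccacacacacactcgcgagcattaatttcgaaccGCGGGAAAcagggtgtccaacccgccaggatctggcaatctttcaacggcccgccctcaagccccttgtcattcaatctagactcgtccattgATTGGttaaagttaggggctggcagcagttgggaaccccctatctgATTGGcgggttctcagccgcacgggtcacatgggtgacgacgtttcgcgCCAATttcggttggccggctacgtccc
The shares of other motifs were small, and no test was made of them. The intestinal elements TTTATTG and TTTATGG (CDX), CAAAGTCCA (HNF4A) and the HNF1 element were in 1.32%, 1.90%, 0.877% and 0.877% of promoters of genes called higher, in 3.18%, 1.20%, 0.283% and 0.283% of those called lower and in 2.84%, 1.75%, 0.481% and 0.309% of those tested. AGATAAG (zinc finger factors of the Gata family), GGGTGTGGC (KLF) and CTTTGAT (TCF) were in 3.22%, 2.63% and 3.51% of the first, 1.77%, 1.13% and 2.69% of the second and 2.00%, 1.59% and 2.70% of the third. In all 27025 promoters the shares of these 7 motifs, in the same order, were 4.84%, 2.76%, 0.477%, 0.437%, 3.07%, 1.40% and 3.72%. The letters TTTATTG can overlap a CCAAT box read on the opposite strand (ATTGG).

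Of 22 cell cycle inhibitors and G1 regulators, 6 (27.3%) were called higher and 4 (18.2%) lower, the latter near the 17.1% of all tested genes. Called higher were 3 without crypt 12, 2 without crypt 21 and 4 without crypt 41. Besides Cdkn1c, the cyclin-dependent kinase gene Cdk4 fell, from 11.55 in endoderm to 9.04, 9.58 and 9.33 in crypts. Gadd45g, a stress-induced growth inhibitor gene, rose from 6.41 to 9.01, 8.63 and 8.63. Ribosome assembly genes followed the replication genes: 20 of 32 were called lower and 0 higher, with a median of -1.06, and without crypt 21 there were 10. Npm1, which encodes the nucleolar protein nucleophosmin, read 9.55, 9.73 and 10.23 in crypts and 12.60 in endoderm, and Mybbp1a, a nucleolar protein gene, 8.82, 8.82 and 8.77 against 10.92. Wdr12, which encodes a factor of the large ribosomal subunit, fell by -1.51 ± 0.21.

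Polycomb and DNA methylation genes encode proteins that write and maintain repressive chromatin marks. Of 24 tested, 13 were called lower, 1 higher and 10 not at all, with a median of -1.18. Ezh2, which encodes the Polycomb methyltransferase, read 6.81, 7.18 and 7.14 in crypts and 9.36 in endoderm. Rnf2, which encodes a Polycomb ubiquitin ligase, read 6.96, 7.25 and 6.87 against 9.56, and Dnmt3a, a de novo DNA methyltransferase gene, 7.53, 7.32 and 7.06 against 9.70. For Rnf2 and Dnmt3a the median of the probe sets gave -0.03 and -0.53, with no call, so their falls rest on the brightest probe sets. The member called higher was Cbx7, a Polycomb reader gene named after its values were seen (0.90).

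**Figure D5:**
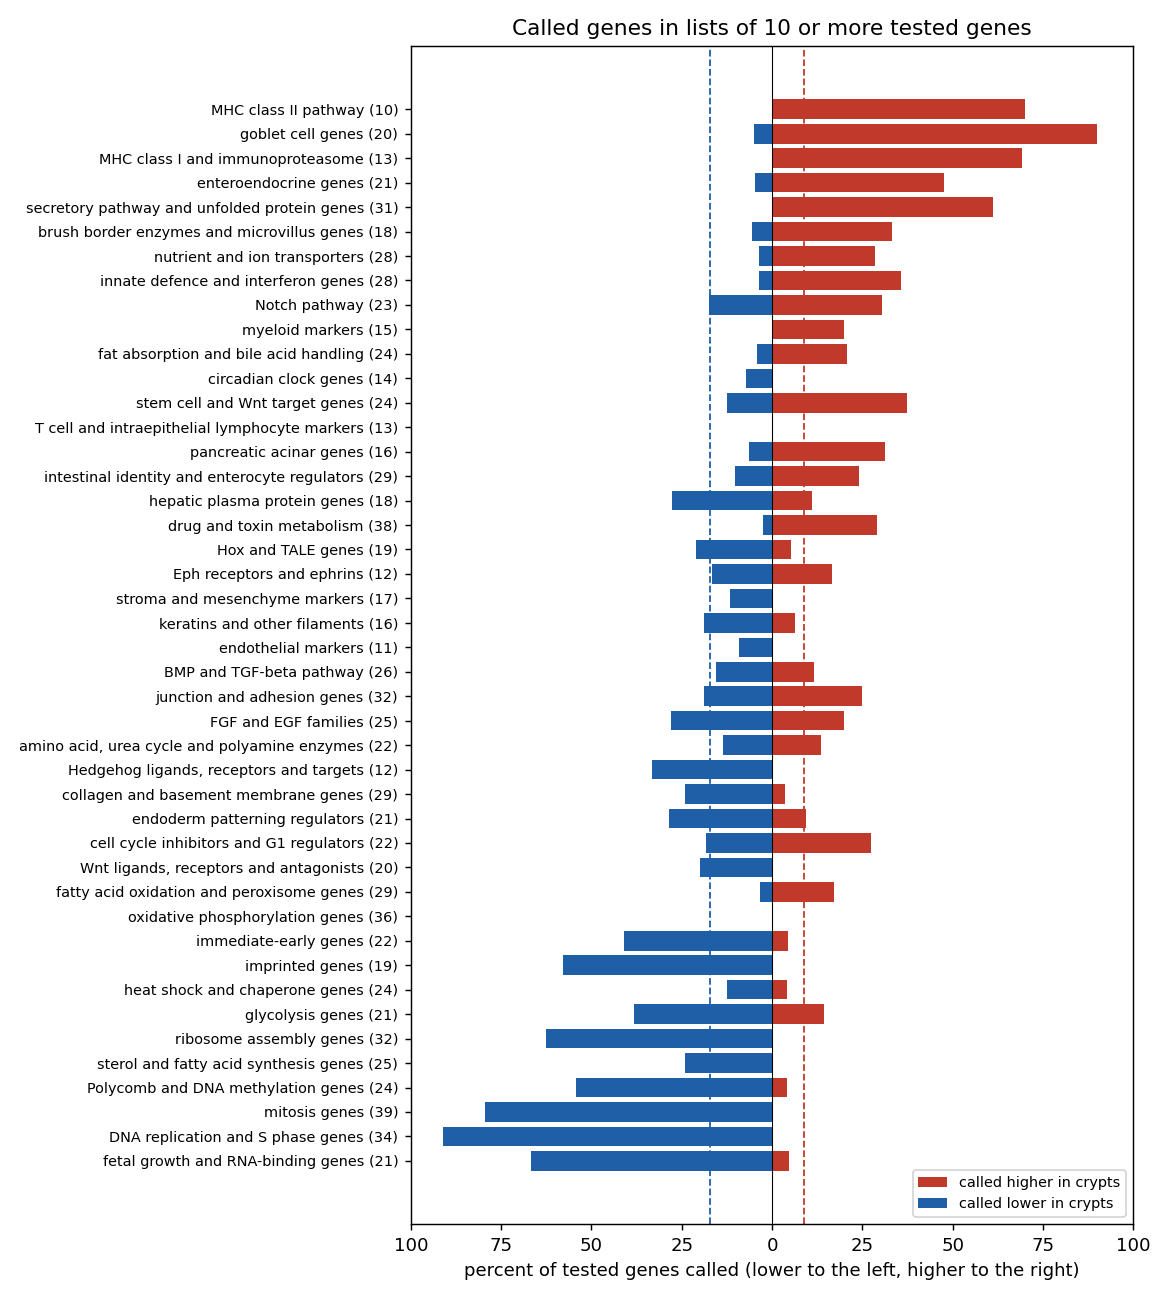
Percent of tested genes called higher (red, to the right) and lower (blue, to the left) in crypts, for each list with 10 or more tested genes, in order of the median difference. Dashed lines mark the shares over all tested genes, 8.74% higher and 17.1% lower. Goblet, MHC and secretory lists pass the red line, and replication, mitosis, fetal growth and ribosome assembly lists pass the blue line.

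Genes of energy metabolism were called in some pathways and not in others. None of 36 oxidative phosphorylation genes was called in the limma fit, 0 had an unadjusted p under 0.05, and Ndufb5, a complex I subunit gene with the largest difference, was at -0.99 ± 0.48. Crypt 41 was the highest crypt array for each of the 36 genes. Under quantile normalization the median of the list turned from -0.25 to 0.07 and 2 genes were called higher. Of 21 genes of the glycolysis list, which also holds genes of related sugar metabolism, 8 were called lower and 3 higher. Without crypt 12 these counts were 5 and 1, without crypt 21 they were 4 and 1, and without crypt 41 they were 9 and 1. Slc2a3, which encodes the glucose transporter GLUT3, read 5.87, 5.68 and 5.48 in crypts and 10.54 in endoderm, while the median of its probe sets gave -2.33. Pkm, a pyruvate kinase gene of fetal and dividing tissue, read 8.81, 9.23 and 9.92 in crypts, 12.25 in endoderm and 11.02 to 11.75 in villi. Pfkl, a phosphofructokinase gene, read 8.66, 8.63 and 9.05 against 11.48, and its call was lost when any crypt array was left out (limma adjusted p up to 0.0861). Named after their values were seen, Pfkp, Fbp1 and Khk were the members of the list called higher, by 2.40, 1.62 and 1.10. Only Pfkp among them encodes a glycolytic enzyme, while Fbp1 acts in gluconeogenesis and Khk in fructose metabolism.

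Of 25 sterol and fatty acid synthesis genes, 6 (24.0%) were called lower and 0 higher, beside 17.1% and 8.74% of all tested genes. The median was -1.17, and 3 were called lower without crypt 12 or without crypt 21. Fasn, the fatty acid synthase gene, read 8.54, 8.76 and 9.06 in crypts and 10.54 in endoderm. Sqle and Fdps, enzyme genes of cholesterol synthesis, fell by -2.20 ± 0.58 and -1.95 ± 0.55, but neither was called without crypt 12 or crypt 21 (limma adjusted p up to 0.0836 and 0.101). Crypt 41 was the highest crypt array for 24 of the 25 genes. Fatty acid oxidation genes had 5 (17.2%) of 29 called higher and 1 (3.45%) lower. Ehhadh and Pex11a, peroxisomal genes, rose by 1.93 ± 0.35 and 1.44 ± 0.19, and Acot1, a thioesterase gene, read 5.02, 4.59 and 4.53 against 8.80. Of 22 amino acid and urea cycle genes, 3 (13.6%) were higher and 3 (13.6%) lower, beside 8.74% and 17.1% of all tested genes. The urea cycle gene Otc rose (8.15, 8.62 and 9.05 against 5.90), and the serine synthesis genes Phgdh (9.49, 9.70 and 8.96 against 11.28) and Psat1 (7.75, 8.89 and 7.75 against 9.65) fell. The third member called lower was Srm, a polyamine synthesis gene named after its values were seen (-0.88). The call of Psat1 was lost under 5 of the 14 alternatives that tested it (limma adjusted p up to 0.0895).

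The E12 endoderm also expressed genes best known from fetal liver and yolk sac. Of 18 plasma protein genes, 5 (27.8%) were called lower in crypts and 2 (11.1%) higher, beside 17.1% and 8.74% of all tested genes. Ambp, which encodes a precursor of plasma protease inhibitors, read 4.72, 4.87 and 4.73 in crypts, 9.43 in endoderm and 5.11 in mesenchyme. Rbp4, the retinol carrier gene, read 6.34, 6.39 and 6.11 against 9.93, with 5.33 in mesenchyme. Afp, which encodes alpha-fetoprotein, read 5.74, 5.24 and 5.19 against 8.81, with 5.16 in mesenchyme, and 1 of its dimmer probe sets differed the other way. These 3 were thus high in endoderm and low in mesenchyme. Alb, the albumin gene, named after its values were seen, differed by 0.54 and was not called.

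Claudin genes moved in both directions. Claudins are the membrane proteins of tight junctions. Of 32 junction and adhesion genes, 8 were called higher, a larger share than the 8.74% of all tested genes. Called lower were 6 (18.75%), near the 17.1% of all tested genes, and 3 without crypt 21. Cldn6, a claudin gene of embryonic epithelia, read 5.42, 5.35 and 5.05 in crypts and 9.60 in endoderm. Cldn15 and Cldn2, which encode claudins that form cation pores, read 10.20, 10.12 and 10.62 against 5.93 and 10.24, 10.57 and 11.17 against 7.44. Named after their values were seen, Cldn8 and Cldn4 fell by -3.16 and -2.80 and Cldn3 rose by 0.78. Among filament genes Vim, which encodes vimentin, read 6.85, 6.42 and 6.59 in crypts, 10.36 in endoderm and 12.00 in mesenchyme. The nuclear lamina genes moved apart, Lmna by 1.31 ± 0.30 and Lmnb1 by -1.28 ± 0.36. Neither lamina call held without crypt 12, with limma adjusted p values up to 0.0822 and 0.0886 over the alternatives.

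Of 29 collagen and basement membrane genes, 7 (24.1%) were called lower, beside 17.1% of all tested genes, and 1 higher. Col3a1, a fibrillar collagen gene, read 4.52, 4.21 and 4.36 in crypts, 7.51 in endoderm and 11.97 in mesenchyme, and its other probe set gave a difference of -0.18. Lamc1 and Lama1, laminin genes of the basement membrane, fell by -2.17 ± 0.23 and -1.81 ± 0.22. Col1a1, the main fibrillar collagen gene, read 6.53, 6.62 and 6.63 in crypts and 6.65 in endoderm, against 9.13 in mesenchyme. Its other probe set read 5.04, 4.96 and 4.96 in crypts, 5.78 in endoderm and 11.48 in mesenchyme, a difference of -0.79. The member called higher was Itgb4, an integrin gene of hemidesmosomes named after its values were seen (1.76).

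Few markers of the tissues around the epithelium were called. Of 17 stroma genes, 2 (11.8%) were called lower, below the 17.1% of all tested genes. They were Fn1, which encodes fibronectin (7.99, 7.83 and 7.55 against 11.09), and Sparc, a matricellular gene (7.86, 7.39 and 7.25 against 8.61). The call of Sparc was lost under 4 of 15 alternatives. The mean of the 28 stroma genes on the array was 5.84 to 5.98 in crypts, 6.03 in endoderm and 7.79 in mesenchyme. Of 9 smooth muscle genes Tagln was called lower (-0.76 ± 0.20), and of 11 endothelial genes Ramp2 (-0.79 ± 0.20), and neither call held without crypt 21. The means of these lists were 6.45 to 6.52 in crypts and 6.49 in endoderm for muscle, and 6.23 to 6.45 and 6.19 for endothelium. Of 8 enteric neural genes Prph, a neuronal filament gene, was higher by 0.78 ± 0.18. Among 8 erythroid genes, Hbb-y, an embryonic globin gene, read 6.17, 6.29 and 5.79 in crypts, 7.48 in endoderm and 12.40 in mesenchyme, and as the median of its probe sets its difference was -5.05. The red cell gene Epb42 was higher in crypts by 0.78 ± 0.19, and neither Prph nor Epb42 was called without crypt 21. Endoderm thus held a lower level of embryonic globin RNA than mesenchyme, and its part in the losses was not tested.

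Immediate-early genes are those that cells switch on within minutes of a stimulus. Of 22 tested, 9 were called lower in crypts, 1 higher and 12 not at all. Jun read 6.72, 6.33 and 6.67 in crypts, 11.12 in endoderm, 10.43 in mesenchyme and 9.45 to 11.36 in villi. Dusp1, a phosphatase gene, read 4.87, 5.10 and 4.76 in crypts, 9.10 in endoderm and 7.44 to 8.56 in villi, and Egr1, a transcription factor gene, 8.05, 8.02 and 7.06 against 11.57, with 8.06 to 9.09 in villi. Crypts were thus the lowest group for Jun and Dusp1. The means over the list were 7.34 to 7.37 in crypts, 8.40 in endoderm, 8.61 in mesenchyme and 8.36 to 9.10 in villi. Whether the preparations differed in handling cannot be told apart from age here. The matrix signaling genes Ccn1 and Ccn2, which are targets of the Yap coactivator, belong to the list of fetal spheroid and regeneration markers. They read 5.22, 5.54 and 5.20 against 9.73, and 5.95, 5.73 and 5.68 against 8.01. Of 11 genes of that list on the array 7 were tested, and 5 of the 11 lay near background on every crypt array. Such genes can enter only through the endoderm array, which favours a call of lower. Of the 7, 5 (71.4%) were called lower and 0 higher, beside 17.1% and 8.74% of all tested genes. Clu, which encodes the secreted chaperone clusterin, was among those called lower (-1.60 ± 0.19). The clock genes had 1 of 14 called, Nfil3, a repressor gene (-1.62 ± 0.43), whose call was lost without crypt 12 or crypt 21.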

How the data were processed

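Crypt, villus, E12 endoderm and E12 mesenchyme samples were measured on oligonucleotide arrays, each 1 array. The authors deposited log2 signals per probe set, made with RMA per the submitters' processing notes (its version is not given in the sources used here). A second value table, with 6 arrays, was not used. Probe sets with 1 gene symbol were kept (20380 of 22690, of which 20351 matched RefSeq), and a gene was read from its probe set with the highest mean. RefSeq tables on GRCm38.p6 gave names and promoters, with 8103 of 10080 tested genes matched to a promoter.

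The 4 groups were fitted with limma 3.58.1 in R 4.3.3, with 4 residual degrees of freedom and Benjamini-Hochberg adjustment over all 10080 tested genes. The fit was run on simulated data in which all arrays, the lone endoderm array included, varied alike. That run could not check whether the endoderm array varies as the crypt and villus replicates do. The number of arrays limits the precision. Genes near background in both groups were left out by the 30th percentile filter. Named genes were the 12 largest rises and falls, the leading called members of each of 51 lists and a set of fixed genes, 157 in all. Genes outside this rule are said to be named after their values were seen. The members and lists were chosen with earlier results of these data known. The alternatives changed the normalization, the probe set rule, the filter, the prior, the arrays in the fit and the replicate block.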

Additional observations from a re-analysis of the deposited data

How the results depend on the processing

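Of 143 named genes that were called, 110 kept their call under every alternative in which they were tested, and 33 lost it under at least 1. The alternative without the E12 mesenchyme array could not change a call, since a group of 1 array adds no spread to the fit. Some genes were not tested under each of the 15 alternatives, and Plagl1 and Meis1, for example, were tested under 13. Leaving out 1 array at a time gave 1598 to 3228 genes called, 485 to 1128 higher in crypts and 1113 to 2100 lower. The lowest counts, 1598, 485 and 1113, came without crypt 21. Leaving 1 crypt array out also leaves fewer samples, and the cause was not tested further. With the replicate number as a random block (consensus correlation 0.113), 2588 genes were called, 879 higher and 1709 lower. A fixed replicate block could not be fitted, since the E12 pair shares no number with the crypts. Differences of 4 genes that were not called turned sign: Epcam to 0.063 and Mki67 to 0.065 under quantile normalization, Lgr5 to -0.024 without crypt 12 and Sox9 to -0.048 without crypt 21. Leaving out 1 array at a time, Lgr5 ranged from -0.024 to 0.59 and Sox9 from -0.048 to 0.27. The cause was not tested. Signals near background limit the folds of 182 called gains and 199 called losses, and the E12 layer rests on 1 pooled array.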
